A study of Chlamydomonas reinhardtii with 27 samples.

Results

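CHLREDRAFT_205725 is a gene of Chlamydomonas reinhardtii, a single-celled green alga, which the study placed in the MYB family of transcription factors (TFs) and paired with MYB88 of Arabidopsis thaliana. It was found by an exact match of its identifier, as 1 of the 19267 identifiers of the count table and of the FPKM table, and it was 1 of the 16443 genes that passed the filter on low counts. The wild-type strain GY-D55 was grown in BG-11 medium under a daily light-dark cycle, and NaCl was added to cells of the mid-logarithmic phase to 200 mM. Messenger RNA was sequenced from 9 conditions with 3 libraries each (27 libraries): control cells without NaCl, cells at the early times of 2, 4 and 8 h in NaCl, and cells at the late times of 12, 24, 48, 72 and 96 h. The names early and late were set here, with the boundary at the only called step of CHLREDRAFT_205725 between neighbouring times. The sampling time of the control cells is not given in the sources used here, so in any comparison with the control, salt cannot be told apart from culture age or hour of the day. The salt times had no sequenced controls of their own, so between them time in salt cannot be told apart from culture age. Except among 24, 48, 72 and 96 h, which lie whole days apart, it cannot be told apart from hour of the day either. The labels do not say that the 3 libraries of a condition came from separate cultures, so the p-values measure the spread between these libraries, which may be technical.

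MYB proteins bind DNA through short repeats that resemble those of the animal Myb proteins, and in land plants they form one of the largest TF families, with members that act in development, metabolism, the circadian clock and stress responses. In A. thaliana, MYB88 acts with its close relative FLP in the stomatal lineage, where the pair represses cell cycle genes and limits the guard mother cell to a single division. C. reinhardtii has no stomata, and what CHLREDRAFT_205725 does in the alga is not given in the sources used here. The name MYB88 therefore stands below for a similarity between sequences and not for a function.

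The study also measured CHLREDRAFT_205725 by quantitative PCR (qRT-PCR), with CHLREDRAFT_132905 (EF1ALPHA, a translation elongation factor gene) as internal reference. The 4 primers are shown because they define the part of the transcript that was amplified and the gene against which it was read. Each is 20 bases long and is printed 5′ to 3′ as listed in the supplementary material, with no base capitalised.
CHLREDRAFT_205725 forward: actacccccttcagacatag
CHLREDRAFT_205725 reverse: cttattacagcgtaggaggg
CHLREDRAFT_132905 forward: ctttggttgcctgcctctga
CHLREDRAFT_132905 reverse: gcctgcaccaatcacatcac
The primers of CHLREDRAFT_205725 hold 10 G or C bases each (50%), and those of CHLREDRAFT_132905 hold 11 each (55%). All values below come from the sequenced libraries and none from the qRT-PCR.

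The libraries held between 15286332 and 24783139 counts (median 18749997), and between 14921 and 17438 genes had at least 1 count. The 50 most abundant genes took 20.4% to 41.1% of the counts of a library. Replicate 1 of 2 h (37.6%) and replicate 1 of 72 h (41.1%) had the highest of these shares. TMM normalization factors, which correct for such shares, ran from 0.677 to 1.3.

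Transcripts of CHLREDRAFT_205725 were scarce in control cells and abundant after 2 h in salt, then settled at a middle level from 12 h onward. Control libraries held 61, 55 and 68 counts of CHLREDRAFT_205725. Libraries of 2 h held 778, 1265 and 1032, those of 4 h held 909, 1051 and 759, and those of 8 h held 824, 892 and 689. The lowest of these 9 early salt libraries had 689 counts, against 68 in the highest control library.

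From 12 h onward the counts of CHLREDRAFT_205725 lay between those of control and of the early salt libraries. Libraries of 12 h held 442, 332 and 368 counts, those of 24 h held 356, 428 and 263, and those of 48 h held 422, 401 and 351. Libraries of 72 h held 240, 325 and 412 counts, and those of 96 h held 436, 461 and 384. All 24 salt libraries stood above all 3 control libraries, and no library from 12 to 96 h reached the count of any library from 2 to 8 h.

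Levels are given as CPM, counts scaled to a common library total, here after TMM correction. CHLREDRAFT_205725 had 3.71, 3.25 and 4.44 CPM in control libraries. It had 51.6, 46.3 and 52.4 CPM at 2 h, 41.0, 41.2 and 34.2 CPM at 4 h, and 36.4, 38.6 and 36.0 CPM at 8 h. The values of 2 h did not overlap with those of 4 h or 8 h, while those of 4 h and 8 h overlapped. It had 24.4, 19.2 and 17.5 CPM at 12 h, 22.3, 26.8 and 18.9 CPM at 24 h, 20.3, 18.0 and 18.7 CPM at 48 h, 21.6, 20.6 and 20.6 CPM at 72 h, and 22.2, 21.7 and 21.2 CPM at 96 h. The range of these last 15 libraries, 17.5 to 26.8 CPM, lay below the lowest library of 2 to 8 h at 34.2 CPM and above the highest control library at 4.44 CPM.

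**Figure D1:**
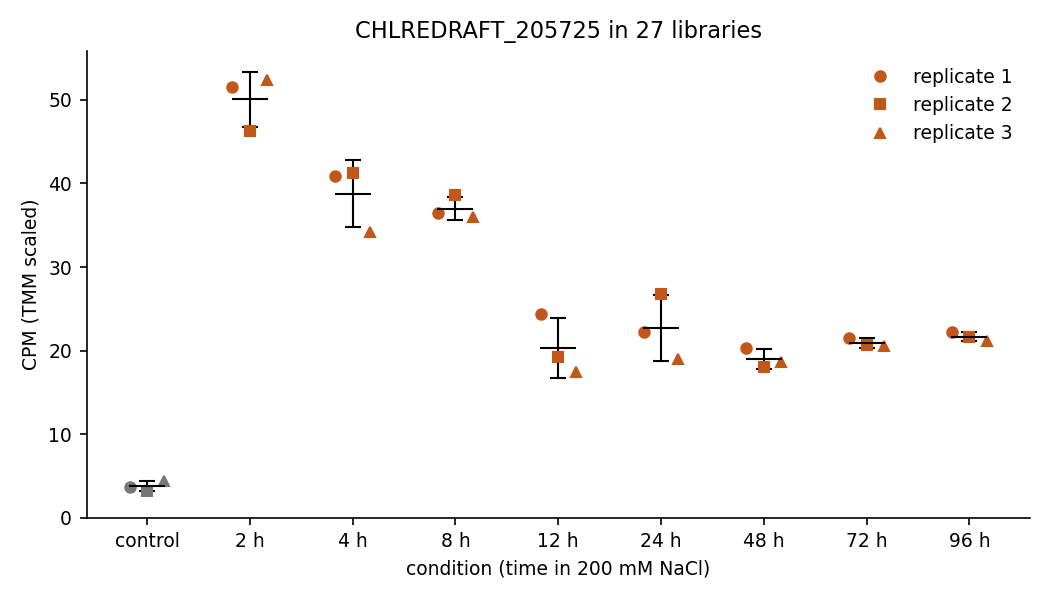
Level of CHLREDRAFT_205725 in CPM (TMM scaled, linear axis) in each of the 27 libraries, by condition, with grey points for control, orange points for salt, marker shapes for the replicate number, and bars for the mean and SD of 3 libraries. The 2 h libraries sit between 46.3 and 52.4 CPM, the libraries of 12 to 96 h between 17.5 and 26.8 CPM, and the control libraries between 3.25 and 4.44 CPM.

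The mean level of CHLREDRAFT_205725 was 3.80 ± 0.597 CPM in control cells (SD, n = 3 here and for each mean that follows). Over the early times it was 50.1 ± 3.30, 38.8 ± 4.00 and 37.0 ± 1.41 CPM, in order of time, and over the late times 20.3 ± 3.57, 22.7 ± 3.93, 19.0 ± 1.17, 20.9 ± 0.546 and 21.7 ± 0.533 CPM. The spread between libraries was close to that of counting alone in some conditions and larger in others. In control cells the coefficient of variation was 15.7%, where counting error alone gives 12.8%. It was 6.60% at 2 h, against 3.17% from counting, and was widest at 12 h and 24 h with 17.5% and 17.3%, against 5.15% and 5.43% from counting. At 72 h and 96 h it was 2.61% and 2.46%, below the counting values of 5.64% and 4.85%. Fitted over all 27 libraries, the biological coefficient of variation of CHLREDRAFT_205725 was 0.130, lower than that of all but 6.10% of the genes tested, whose median was 0.235.

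The agreement between replicates at 2 h and 72 h rested on the normalization. As CPM of the total count, without TMM factors, CHLREDRAFT_205725 had 37.2, 51.0 and 58.8 at 2 h and 14.6, 20.6 and 23.0 at 72 h, with the lowest value each time in the library whose counts were most concentrated in few genes. On that scale the lowest of the early libraries had 34.3, and the late libraries lay between 14.6 and 28.1.

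FPKM, which also divides by gene length, allows a comparison between genes. The deposited FPKM of CHLREDRAFT_205725 averaged 1.27 ± 0.205 in control cells and 16.3 ± 1.53, 12.4 ± 1.36 and 12.1 ± 0.431 over the early times in order (SD, n = 3 each). The late libraries lay between 5.59 and 8.44 FPKM. Among all genes tested, the FPKM level of CHLREDRAFT_205725 stood at percentile 17.3 in control cells, at 70.9, 65.0 and 64.0 over the early times, and between 45.9 and 51.5 over the late times. Among the 112 tested genes of the study's TF list it held rank 97 in control cells and rank 38 at 2 h. It was thus one of the less abundant TF transcripts of unstressed cells and stood near the middle of all genes late in the time course.

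The first comparison asked whether CHLREDRAFT_205725 differed between salt-treated and control cells at each time. It was called higher at all 8 times by edgeR's quasi-likelihood test, with p-values adjusted over the 16443 genes by the Benjamini-Hochberg method and called below 0.05. Genes called higher made up 30.1%, 28% and 28.4% of all genes at the early times in order and 25.7%, 24.9%, 26.9%, 28.7% and 28% at the late times, and 12.5% of genes (2049) were called higher at every one of the 8 times. The 8 comparisons share the 3 control libraries, so they are not independent of each other. In RNA from bulk culture, more cells that express a gene and more of its RNA per cell cannot be told apart.

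At 2 h CHLREDRAFT_205725 was 13.2-fold higher in salt than in control cells, a log2 fold change of 3.72 (SE 0.174, edgeR adjusted p = 6.35e-16). The log2 fold change was 3.35 at 4 h (SE 0.172, edgeR adjusted p = 4.71e-15) and 3.28 at 8 h (SE 0.172, edgeR adjusted p = 4.63e-15). Over the late times it was 2.42, 2.58, 2.32, 2.46 and 2.51 in order of time, with SEs of 0.169 to 0.170 and edgeR adjusted p-values between 1.71e-12 and 7.55e-12. The lowest of the 8, at 48 h, corresponds to 5.00-fold. With a pseudocount of 1 on the FPKM scale, which shrinks low levels, limma gave lower values for CHLREDRAFT_205725, from 1.63 at 48 h to 2.94 at 2 h.

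Among the log2 fold changes of all genes CHLREDRAFT_205725 lay between percentile 94.1 and 97.4 over the 8 times. It held rank 425 of 16443 by log2 fold change at 2 h (percentile 97.4), rank 486 at 4 h and rank 730 at 8 h. From 12 h onward its rank lay between 554, at 24 h, and 971, at 96 h. The median of all genes stayed between -0.03 and 0.03 on the log2 scale at every time. Among the 112 tested genes of the study's TF list, which was drawn up from these libraries, CHLREDRAFT_205725 ranked 11, 9 and 11 over the early times and 12, 7, 15, 12 and 10 over the late times. Among the genes ranked above it at 2 h are MYB genes with almost no control counts, whose fitted log2 fold changes are poorly measured.

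**Figure D2:**
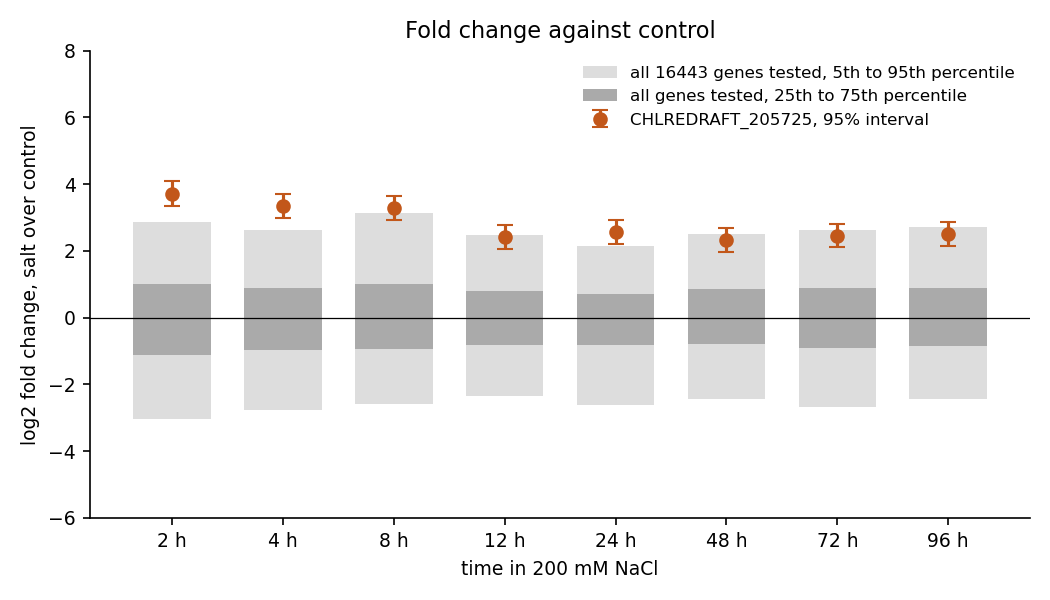
Log2 fold change of CHLREDRAFT_205725 in salt over control (orange points with 95% intervals from the edgeR fit) at 8 times, over grey bars that span the 5th to 95th and the 25th to 75th percentile of all 16443 genes tested. The point lies above the 95th percentile at 2, 4, 8 and 24 h and below it at 12, 48, 72 and 96 h.

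The second comparison asked how the level of CHLREDRAFT_205725 changed between the salt times, which also differ in culture age and mostly in hour of the day. Between neighbouring times the only called change was a fall between 8 h and 12 h. At 12 h it was 20.3 ± 3.57 CPM, against 37.0 ± 1.41 CPM at 8 h (SD, n = 3 each), a log2 fold change of -0.86 (SE 0.152, edgeR adjusted p = 8.48e-05), and the libraries did not overlap. Between 12 h and 8 h, 11.2% of all genes were called lower and 15% higher. With an added requirement of an absolute log2 fold change above 1, the fall of CHLREDRAFT_205725 at this step was not called, and 6 of the 28 pairs of salt times described next were. Of the increase over control at 2 h, 75.6% was present at 4 h and 71.7% at 8 h. Over the late times 35.8%, 40.8%, 32.9%, 37.0% and 38.7% of it were present, in order of time.

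All 28 pairs of salt times were tested for CHLREDRAFT_205725, and 16 were called, each with the later time lower. They include all 15 pairs of a time from 12 to 96 h with a time from 2 to 8 h, with log2 fold changes between -1.40 and -0.71 and edgeR adjusted p-values between 2.90e-08 and 0.000521. Single pairs of this kind had 11.2% to 24.7% of all genes called lower, and 1% of all genes (165) were called lower in all 15. Genes that were also called higher than control at all 8 times made up 0.201% (33), and those among them with no call in the 10 pairs within 12 to 96 h made up 0.0912% (15), which includes CHLREDRAFT_205725. These criteria describe the pattern of CHLREDRAFT_205725 itself, so its membership was fixed and the shares do not measure how unusual the gene is. Because the boundary between early and late lies at the fall of CHLREDRAFT_205725 itself, the 15 calls are no separate evidence of that fall. Pairs that share a time are not independent of each other.

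Within the early times the differences of CHLREDRAFT_205725 were small. At 8 h it was lower than at 2 h, with a log2 fold change of -0.44 (SE 0.150, edgeR adjusted p = 0.0194), where 22.7% of all genes were called lower. This call was lost without replicate 3 of 2 h (edgeR adjusted p = 0.0608), without replicate 1 of 8 h (0.0599) and without replicate 3 of 8 h (0.0652). At 4 h the log2 fold change against 2 h was -0.37 (SE 0.150), with an edgeR adjusted p of 0.108 and no overlap between libraries, where 6.26% of all genes were called lower, while DESeq2 gave -0.40 with an adjusted p of 0.0441. At 8 h against 4 h it was -0.07 (edgeR adjusted p = 0.766), where 17.9% of all genes were called lower and 16.3% higher.

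Within 12 to 96 h no pair of times was called for CHLREDRAFT_205725. The 10 log2 fold changes ran from -0.26 to 0.19, with edgeR adjusted p-values between 0.310 and 0.974 and a smallest unadjusted p of 0.107. Their 95% intervals reached from -0.577 to 0.511 on the log2 scale, and a missed threshold does not show that these times had equal levels. In CPM, all libraries of 48 h lay below all those of 72 h and of 96 h, though neither pair was called. In descending order the mean levels were those of 2 h, 4 h, 8 h, 24 h, 96 h, 72 h, 12 h, 48 h and control. Of the neighbours in that order, 8 h and 24 h (log2 difference 0.71, edgeR adjusted p = 0.000521, with 19.9% of all genes lower at 24 h) and 48 h and control (2.32) differed by the test, and the other 6 pairs of neighbours did not pass it.

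**Figure D3:**
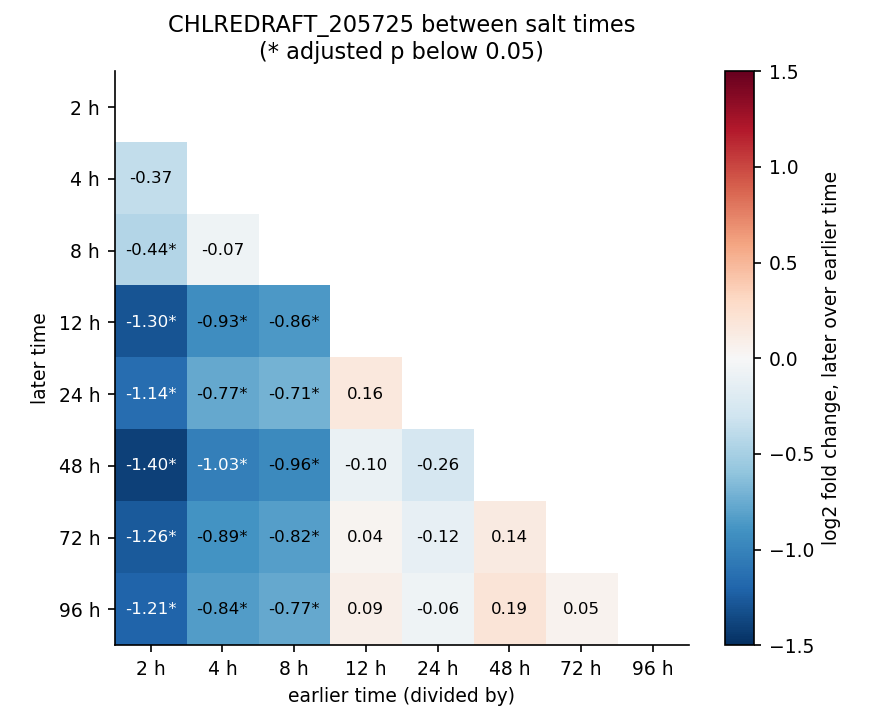
Log2 fold change of CHLREDRAFT_205725 between each pair of salt times, later time (vertical axis) over earlier time (horizontal axis), with the value in each cell and an asterisk where the edgeR adjusted p was below 0.05. The 15 cells of 12 to 96 h over 2 to 8 h are all called and run from -1.40 to -0.71, and none of the 10 cells among 12 to 96 h is called.

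The study read its qRT-PCR against CHLREDRAFT_132905, so the counts of CHLREDRAFT_205725 were also set against the counts of that gene in the same library. Per 1000 counts of CHLREDRAFT_132905 there were 0.532, 0.473 and 0.652 counts of CHLREDRAFT_205725 in control libraries, 4.64, 10.5 and 11.8 at 2 h, 7.71, 8.53 and 5.33 at 4 h, and 5.58, 5.64 and 5.64 at 8 h. There were 2.99, 2.35 and 2.19 at 12 h, 2.26, 2.31 and 1.37 at 24 h, 2.49, 2.47 and 2.00 at 48 h, 1.14, 2.06 and 2.59 at 72 h, and 2.88, 3.73 and 2.56 at 96 h. Every salt library lay above every control library on this scale too, and replicate 1 of 2 h and replicate 1 of 72 h were the lowest of their groups. An exact two-sided permutation test gave p = 0.1 at each time, which is the smallest p that 3 against 3 libraries allow.

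The fold of CHLREDRAFT_205725 over control on this ratio (geometric means) was 15.2, 12.9 and 10.3 over the early times and 4.54, 3.52, 4.22, 3.33 and 5.52 over the late times, in order. At 24 h and 72 h it was smaller than the fold on TMM CPM, 5.97 and 5.51, by more than 1.5 times. CHLREDRAFT_132905 was itself called higher in salt than in control at these 2 times, with log2 fold changes of 0.77 at 24 h (edgeR adjusted p = 0.0296) and 0.84 at 72 h (edgeR adjusted p = 0.0167). Its level was 12308 ± 5847 CPM at 72 h and 6643 ± 3868 CPM at 2 h (SD, n = 3 each), the widest spreads of any of the 9 conditions.

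**Figure D4:**
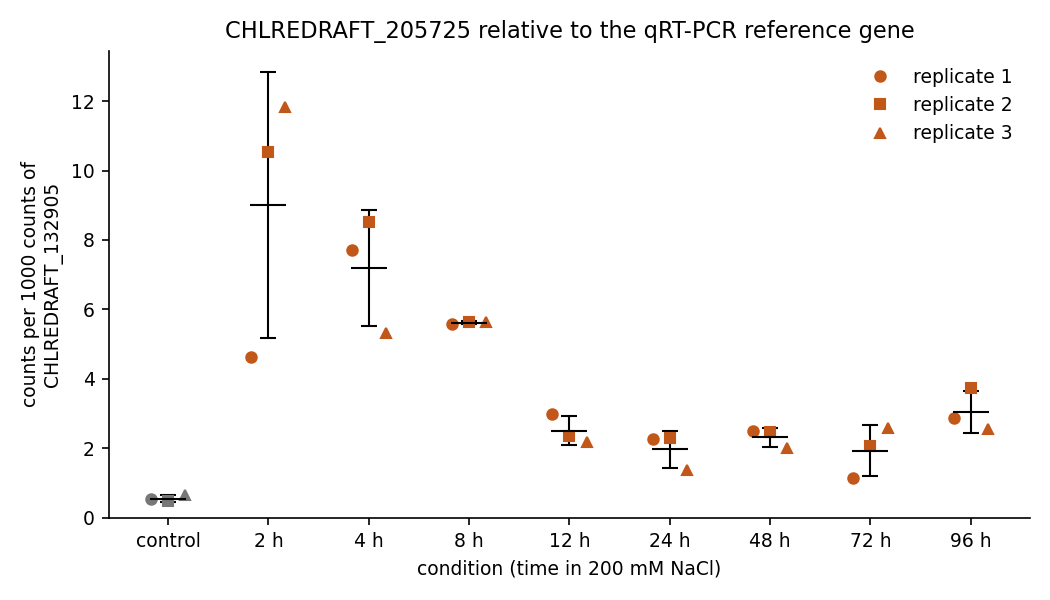
Counts of CHLREDRAFT_205725 per 1000 counts of the qRT-PCR reference gene CHLREDRAFT_132905 (linear axis) in each of the 27 libraries, by condition, with marker shapes for the replicate number and bars for the mean and SD of 3 libraries. The values run from 0.473 to 0.652 in control libraries, from 4.64 to 11.8 over 2 to 8 h and from 1.14 to 3.73 over 12 to 96 h, and replicate 1 of 2 h lies apart from the other 2.

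The other genes of the qRT-PCR panel did not share one course with CHLREDRAFT_205725. They were chosen by the study from these libraries for their direction. CHLREDRAFT_205718, a WRKY family TF, was called higher at all 8 times like CHLREDRAFT_205725, with smaller log2 fold changes of 1.61, 1.42 and 1.47 over the early times and between 0.81 and 0.97 over the late times. CHLREDRAFT_196816, which codes for a Gal oxidase, was also higher at all 8 times, with 0.85 at 2 h and 1.85 at 96 h on the log2 scale. CHLREDRAFT_130812, which codes for the pyrroline-5-carboxylate synthetase of proline synthesis, was higher at 7 times and lower at 8 h (-0.40).

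Of the panel genes chosen as lower in salt, CHLREDRAFT_33411 and CHLREDRAFT_190083 were lower at all 8 times, as 10.4% of all genes were. CHLREDRAFT_33411, an oxygen-evolving enhancer protein of photosystem II, had log2 fold changes of -3.13 at 2 h, -4.02 at 4 h and -0.84 at 96 h. CHLREDRAFT_190083, a catalase, had -3.79 at 2 h and -1.98 at 96 h. CHLREDRAFT_192806, an L-ascorbate peroxidase, was lower at 7 times and not called at 24 h (-0.28). CHLREDRAFT_27658, a UDP-sulfoquinovose synthase of sulfolipid synthesis, was lower at 2, 4 and 8 h (-2.12, -0.67 and -1.36) and higher at 12 h (0.67), 48 h (0.50) and 72 h (0.61).

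The study's TF list held 17 other genes of the MYB family, and all 17 passed the filter. Because the study picked them from these libraries as changed by salt, their counts are no independent evidence of a direction. Called higher were 10, 9 and 9 of the 17 at the early times, where 30.1%, 28% and 28.4% of all genes were higher, and 8, 6, 8, 7 and 8 at the late times, where 25.7%, 24.9%, 26.9%, 28.7% and 28% were. Called lower were 3, 5 and 3 at the early times, where 30.8%, 28.6% and 28.3% of all genes were lower, and 5, 3, 3, 3 and 3 at the late times, where 24.5%, 24%, 24.3%, 26.6% and 26% were. The median log2 fold change of the 17 genes was 1.24 at 2 h, against -0.03 for all genes tested, and 0.70 at 96 h, against 0.00. At 2 h 4 of the MYB genes had a higher fitted log2 fold change than CHLREDRAFT_205725, and 3 of them had at most 2 counts over the control libraries, so a rank within the family is not given. MYB genes that the authors' transcript assembly added are called here by the A. thaliana gene they were paired with.

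Called higher at all 8 times, as CHLREDRAFT_205725 was, were 5 of the 17, beside 12.5% of all genes. CHLREDRAFT_107210 had 31.9, 34.6 and 32.7 CPM in 2 h libraries, against 0.913, 2.01 and 2.15 CPM in control libraries. Its log2 fold changes lay between 3.22 and 4.67, above those of CHLREDRAFT_205725 at each time, and its mean was highest at 8 h. The ALY3 homolog, named for a member of the ALWAYS EARLY family in A. thaliana, had 71.2, 70.6 and 73.6 CPM in 2 h libraries, against 10.6, 10.2 and 8.35 CPM in control libraries. Neither gene had a salt library that overlapped with control at 2 h.

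The log2 fold changes of the ALY3 homolog were 2.89, 2.88 and 2.99 over the early times and between 2.14 and 2.53 over the late times. CHLREDRAFT_194335, paired with MYB16, which acts in epidermal cell shape and cuticle formation in A. thaliana, had 2.49 at 2 h and was highest at 72 h with 3.21. CHLREDRAFT_189408, paired with TRB4, a telomere repeat binding factor of A. thaliana, had 1.97 at 2 h and 3.14 at 8 h, and its call at 24 h was lost without replicate 3 of control (edgeR adjusted p = 0.0556). That call was also lost in the fit of the 6 libraries compared (edgeR adjusted p = 0.0693). CHLREDRAFT_129649, paired with CDC5, a pre-mRNA splicing factor, had 1.24 at 2 h and between 0.54 and 1.17 later, and it was highest at 2 h as CHLREDRAFT_205725 was. The 72 h call of CHLREDRAFT_129649 was lost in the fit of the 6 libraries compared (edgeR adjusted p = 0.0513). It was kept in all 27 fits without 1 library.

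The other 5 MYB genes called higher at 2 h were called at fewer times or had few counts. CHLREDRAFT_117291, paired with MYB64, was called higher at 6 times, with a log2 fold change of 1.56 at 2 h. Its calls at 4, 48 and 96 h were lost in 3, 2 and 1 of the 27 fits without 1 library. CHLREDRAFT_168936, paired with the clock factor RVE8 of A. thaliana, was called only at 2 h (0.72) and 4 h (0.51). Both calls were lost in the fit of the 6 libraries compared (edgeR adjusted p = 0.0622 and 0.0597). The 4 h call was also lost in 3 of the 27 fits without 1 library. CHLREDRAFT_119194, paired with MYB98, had 10, 23 and 44 counts in 2 h libraries, against 2, 0 and 0 counts in control libraries. Its 96 h call was lost in 9 of the 27 fits without 1 library. CHLREDRAFT_188627, paired with MYB39, had 0, 36 and 23 counts in 2 h libraries, against 2, 0 and 0 counts in control libraries. It was called only at 2 h, and that call was lost in 3 of the 27 fits without 1 library.

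CHLREDRAFT_112628, paired with the clock factor CCA1 of A. thaliana, had no counts in the 3 control libraries. It had 124, 19 and 14 counts in 2 h libraries and 40, 53 and 65 in 8 h libraries, and it had none at 24 h and 96 h. Against a floor of 3 counts over the control group it was at least 41.0-fold higher at 2 h, with 1 of the 3 libraries holding most of the counts, and at least 39.5-fold higher at 8 h. These low counts in 3 of the 10 genes leave their fold changes poorly measured beside that of CHLREDRAFT_205725.

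The direction opposite to that of CHLREDRAFT_205725 was found in a minority of the MYB genes. The MYB26 homolog, whose partner acts in anther opening in A. thaliana, was lower at all 8 times, with 133, 109 and 115 CPM in 2 h libraries, against 154, 197 and 118 CPM in control libraries, and log2 fold changes between -0.39 at 2 h and -1.46 at 8 h. Its call at 2 h was weak (edgeR adjusted p = 0.0236), and it was lost in the fit of the 6 libraries compared (0.205) and in 8 of the 27 fits without 1 library, where the log2 fold change reached -0.15 without replicate 2 of control. The MYB45 homolog was lower at 2, 4, 8 and 12 h only, with 8.15, 7.28 and 4.52 CPM in 2 h libraries, against 29.2, 32.1 and 20.6 CPM in control libraries (log2 fold change -2.04). The MYB57 homolog was called in both directions, lower at 2, 4 and 12 h (log2 fold changes -0.53, -0.68 and -0.61) and higher at 8, 48, 72 and 96 h, with 1.17 at 8 h and the highest value, 1.27, at 72 h. The 2 h call of the MYB57 homolog (edgeR adjusted p = 0.0317) was lost in the fit of the 6 libraries compared (0.143) and in 10 of the 27 fits without 1 library. The groups of the MYB26 homolog at 2 h overlapped, with 1 control library inside the 2 h range, and those of the MYB45 homolog did not overlap at all.

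The remaining 4 MYB genes were not called at 2 h and were lower at 3 or 4 later times. CHLREDRAFT_172919 was lower at the 4 times from 24 to 96 h, with log2 fold changes between -1.70 and -1.27. CHLREDRAFT_166618, paired with MYB21, was lower at 24, 48 and 96 h, with values between -1.35 and -0.85, and its 48 h call was lost in 4 of the 27 fits without 1 library. CHLREDRAFT_106655, paired with MYB44, was lower at 4, 12 and 72 h, with 4, 3 and 2 counts in 12 h libraries, against 61, 19 and 46 counts in control libraries. Its call at 72 h, with 1, 0 and 20 counts, was lost in the fit of the 6 libraries compared (edgeR adjusted p = 0.0651). That call was also lost in 3 of the 27 fits without 1 library, and the 4 h call in 2 of them. CHLREDRAFT_123164, paired with RVE8, was lower at 4, 8 and 12 h and had no counts at 8 h, against 6, 29 and 31 in control libraries, which makes it at least 29.3-fold lower against a floor of 3 counts over the 8 h group. Its 4 h call was lost in 3 of the 27 fits without 1 library.

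**Figure D5:**
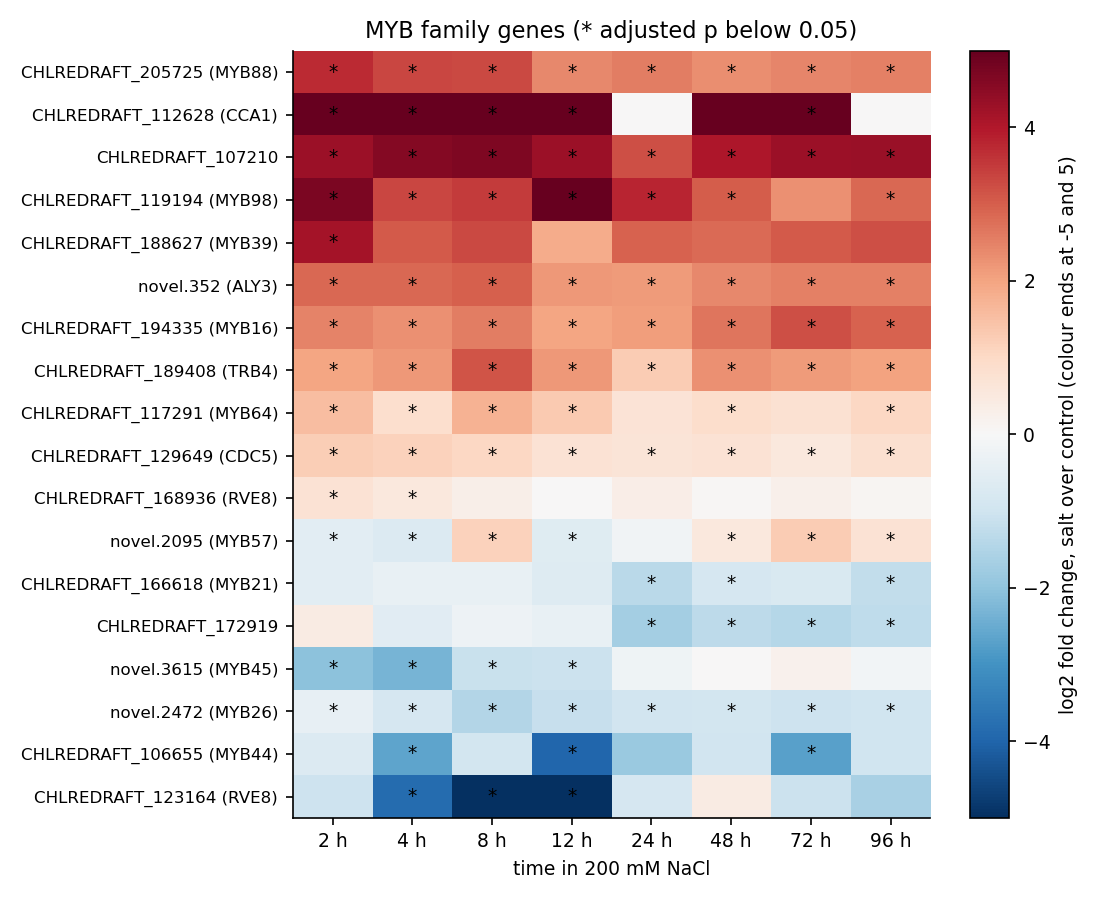
Log2 fold change in salt over control of CHLREDRAFT_205725 (top row) and of the 17 other MYB family genes of the study's TF list at 8 times, with red for higher and blue for lower, the colour scale ending as marked on its bar, and asterisks where the edgeR adjusted p was below 0.05. CHLREDRAFT_205725 and 5 others are called higher in all 8 columns and the MYB26 homolog is called lower in all 8, and the fitted values of CHLREDRAFT_112628 and of CHLREDRAFT_123164 at 8 h rest on groups with no counts and are no measure of size.

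The step between 8 h and 12 h, where CHLREDRAFT_205725 fell, was shared by 4 of the 17 other MYB genes (23.5%), and none of the 17 was called higher there. They were the ALY3 homolog (log2 fold change -0.81), CHLREDRAFT_189408 (-0.96), the MYB57 homolog (-1.78) and CHLREDRAFT_106655 (-3.06, on few counts). Of the 111 other genes of the TF list, 15.3% were lower and 9.01% higher at this step, beside 11.2% and 15% of all genes.

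The genes whose pattern was most like that of CHLREDRAFT_205725 were found by Pearson's r of log2 CPM over the 27 libraries, among 16442 other genes. These points share their libraries, depth and scaling, the salt and control groups set most of the range, and no test was made. The highest was a gene that the authors' transcript assembly added and that has no name in the sources used here (r = 0.967). The next 4 were CHLREDRAFT_174284 (0.960), CHLREDRAFT_190633 (0.959), CHLREDRAFT_182699 (0.958) and CHLREDRAFT_192990 (0.955). In all, 10 genes had r above 0.95, 117 above 0.9 and 43 below -0.9, and the median over all genes was -0.03. The choice of the first 5 depended on the measure, since 3 of them were kept with FPKM and 0 with condition means or with Spearman's rho.

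The added gene had 66.5, 58.0 and 70.5 CPM in 2 h libraries, against 4.75, 4.49 and 3.98 CPM in control libraries. Its log2 fold change was 3.88 at 2 h and 3.05 at 12 h, beside 3.72 and 2.42 for CHLREDRAFT_205725. CHLREDRAFT_174284 changed more than CHLREDRAFT_205725, with 6.02 at 2 h and 3.54 at 96 h. CHLREDRAFT_190633 had 3.38 and 2.03, CHLREDRAFT_182699 had 1.99 and 1.42, and CHLREDRAFT_192990 had 2.41 and 1.79 at those 2 times. The MYB gene most like CHLREDRAFT_205725 was the ALY3 homolog (r = 0.951, rank 10), and the most similar TF outside the family was CHLREDRAFT_205718 (r = 0.909, rank 90).

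In the reference annotation of the assembly Chlamydomonas_reinhardtii_v5.5 CHLREDRAFT_205725 carries the locus tag CHLRE_02g103450v5. The 2 nearest genes on each side do not overlap it, and 3 of the 4 had an identifier in the count table. On one side CHLREDRAFT_186886 stood next to it and was called higher at 6 of the 8 times, with 61.4, 29.9 and 29.0 CPM in 2 h libraries, against 3.11, 3.19 and 8.54 CPM in control libraries, and log2 fold changes of 3.02, 1.98 and 1.04 over the early times and 0.26 (not called) at 24 h. Beyond it CHLREDRAFT_141865 was higher at 2, 4 and 24 h, with at most 0.97, and lower at 96 h (-0.57). On the other side CHLREDRAFT_141868 had 3, 3 and 0 counts in control libraries and was called higher at 4, 8, 12 and 48 h. Whether reads of one neighbour were counted for another was not tested.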

How the data were processed

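The authors filtered the reads, aligned them with HISAT2 2.0.5 and assembled further transcripts with StringTie 1.3.3b (versions from the submitters' processing notes), and counted reads per gene with featureCounts. The deposited counts are whole numbers without normalization. The deposited FPKM values were made by the authors from counts and gene lengths. Over 6110 genes the scale of the FPKM values matched size factors of the median-of-ratios kind, and it departed from library totals by up to 35.1%. The study took its genome and gene models from Ensembl Plants, and the assembly name, the use of strand and the treatment of reads that map to several genes are not given in the sources used here.

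Here the counts were filtered (filterByExpr), scaled by TMM and fitted with edgeR 4.0.16 (R 4.3.3) over all 27 libraries with 1 term per condition. Quasi-likelihood tests were adjusted by Benjamini-Hochberg over 16443 genes in each comparison. SEs are the log2 fold change divided by the root of F. The pipeline was tested on simulated data with few changed genes, in a single comparison and with the same spread for every gene. Far more genes were called in the real data, so that test does not cover the scaling under such broad change. Alternatives were DESeq2 1.42.0, limma 3.58.1 on FPKM, other scalings and filters, 6-library fits, a replicate block, and each library left out. Tables were made with pandas 2.3.3 and scipy 1.17.1.

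Samples were grouped by their labels. The gene, its lists and the tests were chosen with earlier results of these data known. Named genes are CHLREDRAFT_205725, the MYB genes and qRT-PCR panel of the study, the 5 genes most like it and its nearest neighbours. A list of 16 cell cycle symbols was left out, since the reference table, which matched 12541 of 19267 identifiers, paired none of them with an identifier. Primer sequences came from the study's supplementary material, and no genome sequence was used.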

Additional observations from a re-analysis of the deposited data

Results flagged for a closer look

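The edgeR test of the difference between neighbouring salt times singled out the following results. CHLREDRAFT_205725 was lower at 12 h than at 8 h, with a log2 difference of -0.86 (edgeR adjusted p = 8.48e-05), and it was higher than control at both times. Of the MYB and qRT-PCR panel genes, 3 changed sides of the control between neighbouring times, called at both. The MYB57 homolog was higher at 8 h than at 4 h by 1.85 (edgeR adjusted p = 1.41e-07) and then lower at 12 h than at 8 h, with -1.78 (edgeR adjusted p = 3.20e-07). CHLREDRAFT_130812, the pyrroline-5-carboxylate synthetase gene, took the opposite course, with -2.03 at 8 h against 4 h (edgeR adjusted p = 2.19e-10) and 1.11 at 12 h against 8 h (edgeR adjusted p = 4.82e-06). CHLREDRAFT_27658, the UDP-sulfoquinovose synthase gene, was higher at 12 h than at 8 h by 2.03 (edgeR adjusted p = 2.31e-10). No group had enough libraries for a check of single outlying libraries.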

How the results depend on the processing

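The 8 comparisons of CHLREDRAFT_205725 with control kept their direction and their call under all 9 alternatives (72 results). They also kept both in all 27 fits that left out 1 library (216 results). At 2 h the log2 fold change ranged from 2.94 (limma on log2(FPKM + 1)) to 3.75 over the alternatives and from 3.66 to 3.89 over the fits without 1 library. Between salt times, DESeq2 called 4 h lower than 2 h (-0.40), and a minimum absolute log2 fold change of 1 removed the call of 12 h against 8 h (-0.86), a call that the fits without 1 library kept at an adjusted p below 0.05. Same-numbered libraries of 2 conditions correlated between -0.173 and 0.309 in their deviations, and 13 of 108 correlations exceeded 0.1. Differently numbered libraries were not set beside them, so these values cannot decide whether replicate numbers pair the libraries. Only between 72 h and 2 h did all 3 correlations exceed 0.1 (0.309, 0.148 and 0.170). There the log2 fold change was -1.26 with and without the replicate block. With the replicate block the log2 fold change at 2 h was 3.72, and 16 of 28 pairs were called as without it. The count of called pairs was 16 to 17 under the other alternatives and 15 to 16 without 1 library, but 6 with the minimum of 1.

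Relative to CHLREDRAFT_132905 the fold of CHLREDRAFT_205725 over control was 15.2, 12.9 and 10.3 over the early times, and 3.52, 4.22, 3.33 and 5.52 from 24 to 96 h, more than 1 SD of the salt libraries' TMM CPM fold away from that fold. By the spread of the ratio itself, the differences at 2, 4 and 96 h were within 1 SD. Without TMM factors the ratio of mean CPM to control was 15.3, 13.1 and 13.9 over the early times and 6.05 to 7.91 over the late times. Of the 5 most similar genes 0 stayed among the first 5 with condition means or Spearman's rho, and 3 with log2(FPKM + 1).

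In the MYB list, the genes lower at 2 h numbered 1 in the 6-library fit and 1 to 3 without 1 library. The count was 1 without replicate 1 or 2 of control, replicate 2 or 3 of 2 h, replicate 1 of 12 h, replicate 1 or 2 of 24 h, or replicate 3 of 48 h. With at least 10 counts in every library, 3 genes were lower at 4 h and 3 at 12 h. Without 1 library the genes lower at 4 h numbered 3 to 5 (3 without replicate 1 of control), those higher at 48 h 5 to 9 (5 without replicate 2 of control) and those lower at 48 h 1 to 3 (1 without replicate 3 of control). RLE factors moved the median of all genes by at most 0.07 on the log2 scale. Of the 93 calls of MYB genes against control, 22 were lost without some library. The cell cycle list gave no values.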

Other observations

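Because the cell cycle symbols could not be matched, the 2 genes that the study's TF list places in the E2F family, TFs that act on cell cycle genes in animals and plants, were looked at instead, a choice made after the data were seen. CHLREDRAFT_206364 was called higher at 2, 4, 8 and 12 h, with log2 fold changes of 1.27, 1.36, 1.28 and 1.12 by edgeR, and its later values between 0.56 and 0.84 were not called. Its libraries of 2 h held 5.37, 10.4 and 7.56 CPM, against 3.53, 3.31 and 2.87 CPM in control libraries. CHLREDRAFT_206363 was lower at 4 h (-0.76) and 12 h (-0.58) and was not called at the other 6 times. CHLREDRAFT_17453, a TUB family TF, had r = 0.893 with CHLREDRAFT_205725 over the 27 libraries, with log2 fold changes of 1.95 at 2 h and 1.21 at 96 h.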
